A study of Mus musculus with 8 samples.

Results

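The Egr proteins are zinc finger transcription factors made from immediate early genes, whose transcription starts within minutes of a mitogenic signal and needs no new protein. Ras and ERK signalling reaches these genes through serum response factor (SRF) and its ternary complex partners on CArG boxes, and through CREB on cyclic AMP response elements. Nab1 and Nab2 bind Egr1, Egr2 and Egr3 and repress transcription at their sites together with the NuRD complex, and Nab2 is itself an Egr target. The probes named for Egr1, Egr2, Egr3, Egr4, Nab1 and Nab2 were taken from the array, every probe of each gene included. These 6 of 35715 gene names on the array had 7 of its 55681 probes, 1 for each gene and 2 for Nab2, and all 7 passed the filter on dim probes that 30859 probes passed.

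RNA was measured in NIH3T3 cells, an established line of mouse embryo fibroblasts, on 1-colour Agilent arrays. All cells were kept in 0.5% newborn bovine serum for 24 h before treatment. The serum group (n = 3) received 0.1% DMSO and, 60 min later, serum for 30 min. The cordycepin group (n = 3) received 20 µM cordycepin in DMSO for 90 min in all, with the same 30 min of serum at the end, and the no serum group (n = 2) received DMSO and no serum. Cordycepin is 3′-deoxyadenosine, an adenosine analogue that lacks the hydroxyl group needed to extend an RNA chain. Cordycepin alone, with no serum added, is not analysed here, and its effect refers to serum-treated cells.

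Levels are log2 processed signals from which the array's 75th percentile was subtracted, so 0 is the level of a fairly bright probe and a unit is a factor of 2. They compare arrays for 1 probe and do not rank probes. That percentile lay between 350 and 802 signal units, 51.9 to 57.7% of spots were well above background and none was saturated. Arrays of a group correlated at r = 0.992 to 0.995 over the tested probes, and arrays of different groups at 0.966 to 0.992. All 11 fibroblast markers examined, collagen genes and Vim among them, were well above background on all 8 arrays, and 0 of 5 epithelial markers were. So were 3 of 4 leukocyte markers (Cd68, Csf1r and Cd3e), 2 of 3 endothelial markers and 4 of 5 neural and Schwann cell markers. The summed linear level of the 4 leukocyte markers was 2.76 to 3.26 with serum and 8.97 to 11.3 with cordycepin, of which Cd68 rose by 3.04 on the log2 scale while Ptprc, the gene that defines the lineage, was not well above background on all arrays of any group. The summed level of 5 neural and Schwann cell markers was 15.8 to 20.0 with serum and 28.3 to 43.0 with cordycepin. The part of any of these lists in the results below was not tested. In bulk RNA, fewer cells with a transcript and less of it per cell cannot be told apart.

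To find out which Egr and Nab genes responded to serum, the serum arrays were compared with the arrays without serum. All 4 Egr genes were called higher, and neither Nab gene was. Egr4 passed the filter on dim probes through the serum arrays alone, where it is high, so its call is not separate evidence. A call needed an adjusted p under 0.05 in limma and a log2 change of at least 1, and 0.849% of all probes were called higher and 0.878% lower in this comparison. The median change of the 6 genes was 2.06 on the log2 scale, beside -0.017 over all probes.

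When serum was given after cordycepin, 4 of the 6 genes were called lower than with serum alone, namely Egr1, Egr3, Egr4 and Nab2. The same limit of the filter holds for Egr4 here, which also counts in the median of each comparison. Of all probes, 2.87% were called lower and 7.63% higher, and no Egr or Nab gene was higher. Egr2 was also lower, by less than the change a call needed, and Nab1 did not pass the test. The median change was -1.52, beside 0.10 over all probes. Both comparisons use the same 3 serum arrays, so a high value on these arrays would enter both with opposite signs.

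Finally, the cordycepin arrays were compared with the arrays without serum, to see how much of each serum response was left. Egr2 was called higher, and it was the only 1 of the 6 genes called, with 6.48% of all probes called higher and 2.99% lower. The median change was 0.070, beside 0.084 over all probes.

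**Figure D1:**
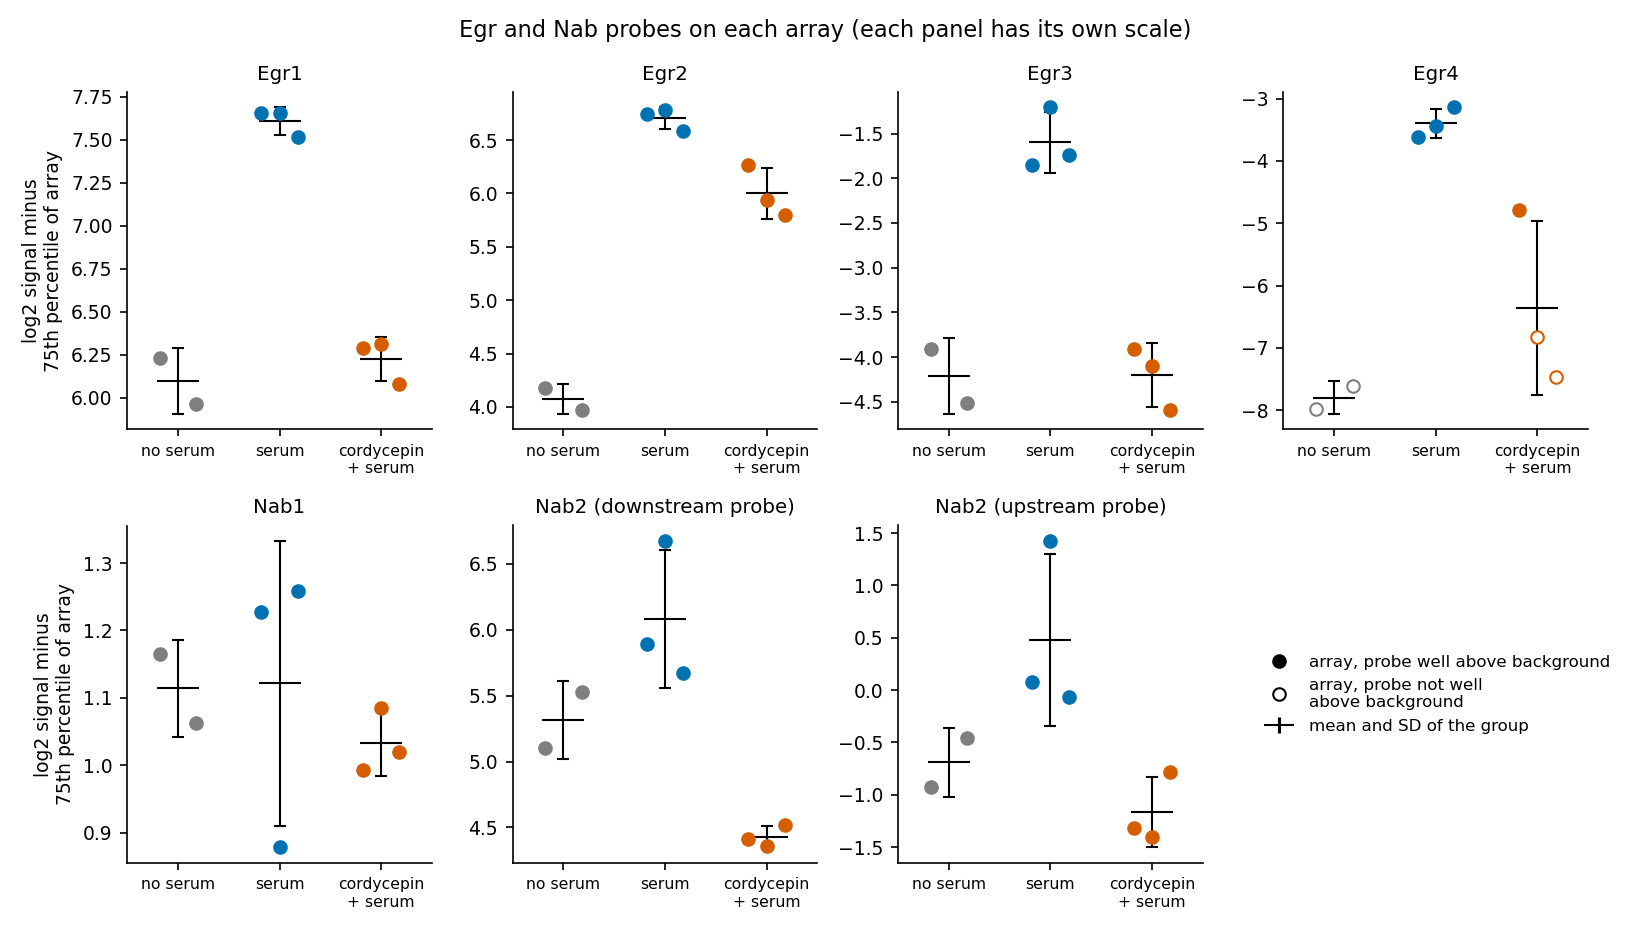
Level of each Egr and Nab probe on each of the 8 arrays, as log2 signal minus the 75th percentile of the array, with a scale of its own for each panel. Points are arrays (filled where the probe was well above background), and bars show the mean and SD of the group. The 3 serum arrays lie above all other arrays for each Egr gene and for both Nab2 probes, and the groups overlap for Nab1.

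Egr1, the archetypal immediate early member of the family, was read by a probe near the 3′ end of its mRNA (chr18:35024395-35024454, mm9, plus strand). Its level was 6.23 and 5.96 without serum, 7.65, 7.66 and 7.51 with serum, and 6.29, 6.31 and 6.08 with cordycepin and serum. The serum arrays stood apart from all others, while the cordycepin arrays and the arrays without serum overlapped. The rise with serum was 1.51 ± 0.14 on the log2 scale (SE, limma adjusted p 0.00163), a factor of 2.85. With cordycepin, Egr1 fell by 1.38 ± 0.12 (SE, limma adjusted p 0.000142), which made it 2.61-fold lower with a 95% interval from 2.14 to 3.17. Against no serum, the cordycepin arrays differed by 0.13, with an interval from -0.19 to 0.45 and a limma adjusted p of 0.588. Egr1 was bright in starved cells already, with a processed signal of 34361 and 60334 on the arrays without serum. Centring on spike-in probes ended both of its calls (limma adjusted p 0.0655 for cordycepin and 0.810 for serum), where the 19 alternatives gave changes of -1.53 to -1.31 for cordycepin and 1.15 to 1.65 for serum.

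Egr2, known as Krox20 from the hindbrain and as a regulator of myelin genes in Schwann cells, was read at chr10:67004798-67004857 (mm9, plus strand). It gave 4.17 and 3.98 without serum, 6.74, 6.78 and 6.59 with serum, and 6.27, 5.94 and 5.80 with cordycepin and serum. No 2 groups overlapped, and the cordycepin arrays lay closer to the serum arrays than to those without serum. Egr2 rose by 2.63 ± 0.16 with serum (SE, limma adjusted p 0.000244), a factor of 6.19. With cordycepin it fell by 0.70 ± 0.15 (SE, limma adjusted p 0.0108), a factor of 1.63. With centring on spike-in probes this change was -0.73 and did not pass the test (limma adjusted p 0.879). The cordycepin arrays remained 1.93 ± 0.16 above no serum (SE, limma adjusted p 0.000186), a factor of 3.81 with an interval from 2.93 to 4.93. That last call was lost with centring on spike-in probes, at 1.54 and a limma adjusted p of 0.0973, and over the 19 alternatives the change ranged from 1.54 to 2.03.

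Egr3, which shares its binding site with Egr1 and is itself induced by growth factors, was read by a probe within its coding region (chr14:70479222-70479281, mm9, plus strand). The probe is shown because other probes further along the same strand gave another pattern, described below.
Egr3 probe: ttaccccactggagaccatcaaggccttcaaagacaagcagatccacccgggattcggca
The level of Egr3 was -3.91 and -4.51 without serum, -1.85, -1.21 and -1.74 with serum, and -3.91, -4.10 and -4.60 with cordycepin and serum. The signal was low but well above background on all 8 arrays, at 174 to 206 units with serum and 19.0 to 34.0 with cordycepin. The serum arrays lay above the rest, and the other 2 groups overlapped. Egr3 rose by 2.61 ± 0.28 with serum (SE, limma adjusted p 0.00345) and fell by 2.60 ± 0.25 with cordycepin (SE, limma adjusted p 0.000228). Between cordycepin and no serum the change was 0.012, with an interval from -0.64 to 0.67 (limma adjusted p 0.986). Normexp background correction, which adds an offset of 50 to every signal, gave a rise of 1.43 and a fall of 1.13 that were still called.

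Egr4, a member of the family best known from neurons and germ cells, gave dim readings (chr6:85461153-85461212, mm9, minus strand). Its processed signal was 43.8 to 67.6 with serum, 2.60 to 12.7 with cordycepin and 2.82 to 3.17 without serum. It was well above background on 3 of 3 serum arrays, on 1 of 3 cordycepin arrays and on 0 of 2 arrays without serum. As levels, these were -3.61, -3.44 and -3.14 with serum, -4.79, -6.83 and -7.47 with cordycepin, and -7.98 and -7.61 without serum, so that the groups did not overlap but the cordycepin arrays spread over a wide range. Egr4 was at least 5.15-fold higher with serum than without (limma adjusted p 0.0154), the bound being set by the dimmest probes well above background on the arrays without serum. With cordycepin the fitted change was -2.96 ± 0.59 (SE, limma adjusted p 0.00905), and it ranged from -3.75 to -0.52 over 18 alternatives, the former without cordycepin replicate 1, the highest array of its group. Normexp background correction ended that call (limma adjusted p 0.112), and leaving out either array without serum ended the call for serum, with limma adjusted p-values of 0.0858 and 0.101, as did testing all probes with no filter (limma adjusted p 0.0716). No fold is given between cordycepin and no serum, where 1 of 5 arrays measured the gene.

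Nab1 passed the test in none of the 3 comparisons. Its probe (chr1:52515132-52515191, mm9, minus strand) gave 1.17 and 1.06 without serum, 1.23, 0.88 and 1.26 with serum, and 0.99, 1.09 and 1.02 with cordycepin and serum. The 3 groups overlapped, and the lowest and the highest array were both serum arrays. The change with cordycepin was -0.09, with an interval from -0.38 to 0.21 (limma adjusted p 0.670), and that with serum was 0.0073, with an interval from -0.32 to 0.34 (limma adjusted p 1.00).

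Nab2, the corepressor that Egr factors induce, was read by 2 probes that lie 3404 bases apart on the minus strand of chromosome 10 (mm9). The downstream probe (chr10:127098009-127098068) gave 5.11 and 5.53 without serum, 5.89, 6.68 and 5.68 with serum, and 4.41, 4.36 and 4.52 with cordycepin and serum. The upstream probe (chr10:127101413-127101472) gave -0.92 and -0.46 without serum, 0.08, 1.43 and -0.07 with serum, and -1.31, -1.41 and -0.79 with cordycepin and serum. On both probes, serum replicate 2 was the highest array, and all serum arrays lay above all cordycepin arrays. Nab2 fell by 1.65 with cordycepin on each probe, with an SE of 0.25 and a limma adjusted p of 0.00225 downstream and an SE of 0.39 and a limma adjusted p of 0.0191 upstream. Without serum replicate 2 the falls were 1.35 and 1.17, and both were still called. The upstream call was lost without cordycepin replicate 1 (limma adjusted p 0.0703) and without cordycepin replicate 2 (0.0680 by limma), and with no filter on dim probes (0.0575 by limma), within a range of 0.00408 to 0.0703 over its 19 alternatives.

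The rise of Nab2 with serum alone was 0.77 ± 0.28 downstream (SE, limma adjusted p 0.339) and 1.17 ± 0.43 upstream (SE, limma adjusted p 0.348), so it was not called although the groups did not overlap on either probe. Without serum replicate 2 these rises were 0.47 and 0.70. In the downstream reading all 3 cordycepin arrays also lay below both arrays without serum, by 0.89 ± 0.28 (SE, limma adjusted p 0.0759). Upstream that difference was -0.48, with a limma adjusted p of 0.516, and the groups overlapped. Nab2 was the only gene of the 6 for which the mean with cordycepin was below the level without serum by more than 0.1 on the log2 scale.

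**Figure D2:**
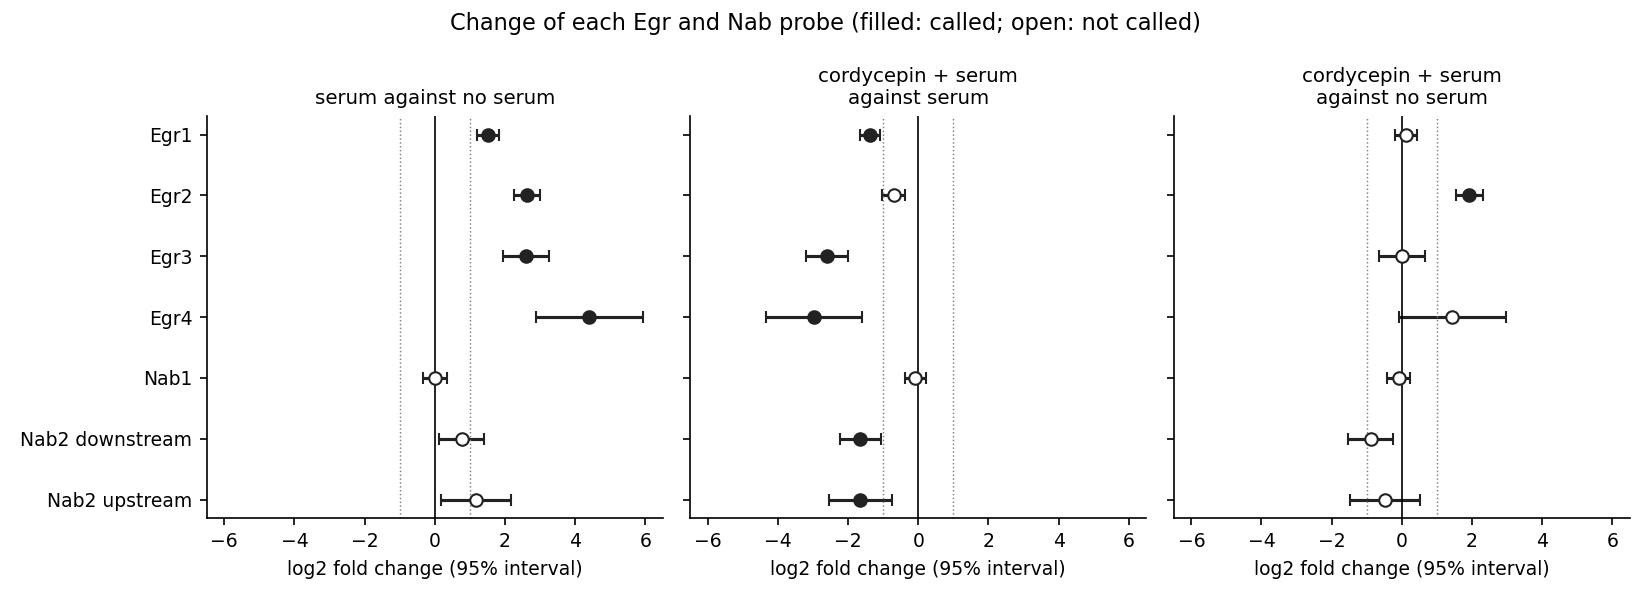
Log2 fold change of each Egr and Nab probe in the 3 comparisons, with 95% intervals from limma. Filled points were called, open points were not, and dotted lines mark a change of 1 in size. With cordycepin, Egr1, Egr3, Egr4 and both Nab2 probes lie left of -1, Egr2 stays at -0.70 and Nab1 at -0.09, while against no serum Egr2 alone is called, at 1.93.

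Whether the genes differed in their response to cordycepin was examined on the difference between 2 genes within each array, so that the brightness of the probes cancels. An exact permutation test of 3 arrays against 3 is two-sided here and cannot give a p below 0.1, and 7 pairs were compared. Egr2 responded less than Egr1 by 0.68 ± 0.11 on the log2 scale (SE), less than Egr3 by 1.90 ± 0.20 and less than Egr4 by 2.26 ± 0.70, where 2 of the 3 cordycepin readings of Egr4 were not well above background. In these 3 pairs the 2 groups of arrays did not overlap, and each exact permutation p was 0.1, or 0.14 after adjustment over the 7 pairs. Egr1 responded less than Egr3 by 1.22 ± 0.23 (SE, exact permutation p 0.1), also without overlap. Between Egr1 and Egr4 (1.58 ± 0.79, SE, exact permutation p 0.3) and between Egr3 and Egr4 (0.36 ± 0.68, SE, exact permutation p 0.7) the arrays overlapped. Nab1 and Nab2 differed by 1.56 ± 0.43 (SE, exact permutation p 0.1), without overlap. The order of these genes rests on the background correction. With normexp, Egr2 still responded less than Egr1 (by 0.67) and Egr3 (by 0.41), but Egr2 minus Egr4 turned to -0.21, Egr1 minus Egr3 to -0.26, Egr1 minus Egr4 to -0.88 and Egr3 minus Egr4 to -0.62.

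Genes whose levels over the 8 arrays were most like those of each responding gene were sought among 13414 genes with a RefSeq mRNA probe. The measure was Pearson's r, which rests largely on the 3 group means and is given as a description. Egr1 was most like Gm3383 (r = 0.994), Ptgs2 (0.993), which encodes the inducible cyclooxygenase, and the pseudokinase gene Trib1 (0.989). Egr3 was most like Trib1 (0.992), Gadd45b (0.989) and Ifrd1 (0.983). Egr2 was most like Npas4 (0.993), Ier3 (0.987) and Arl4d (0.985). Their changes follow from this choice and are given as values. Npas4, an immediate early transcription factor gene of neurons, was 1.12 lower with cordycepin than with serum and 2.24 above no serum, and for Arl4d these differences were 1.14 and 2.45. For Ptgs2 they were 2.73 and 0.23. Egr4 was most like Rhoh (0.974), Mat2a (0.972) and Arl5b (0.962), and Nab2 like Vgll4 (0.991), Rnf19b (0.989) and Adnp2 (0.986). Since Egr4 was well above background on 1 of 3 cordycepin arrays and 0 of 2 without serum, its r rests partly on readings near background.

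Promoter windows of 300 bases around annotated transcription starts were read from RefSeq (GRCm38.p6), and 4 of the 6 genes had 1 or more, 8 windows in all. Both strands were searched for the CArG box, bound by SRF, for the Egr site GCGNGGGCG, for the cyclic AMP response element TGACGTCA and its part TGACG, for the ETS core CCGGAA and for the Sp1 site GGGCGG, which can overlap the Egr site. Of 32851 windows in the table, 1.63% held a CArG box, 5.55% the Egr site, 1.79% TGACGTCA, 20.8% TGACG, 14.9% CCGGAA and 35.7% GGGCGG. The windows below hold matches in genes with a strong (Egr2, Egr4) and with no (Nab1) response to serum, and capitals mark all matches but those of GGGCGG.
Egr2, chr10:67537316-67537615, plus strand: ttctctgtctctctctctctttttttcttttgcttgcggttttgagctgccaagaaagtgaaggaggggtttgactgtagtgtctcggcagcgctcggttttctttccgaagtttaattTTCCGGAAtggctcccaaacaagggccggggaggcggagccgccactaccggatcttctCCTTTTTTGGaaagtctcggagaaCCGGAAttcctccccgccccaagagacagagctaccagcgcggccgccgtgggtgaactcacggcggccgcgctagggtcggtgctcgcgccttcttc
Egr2, chr10:67537619-67537918, plus strand: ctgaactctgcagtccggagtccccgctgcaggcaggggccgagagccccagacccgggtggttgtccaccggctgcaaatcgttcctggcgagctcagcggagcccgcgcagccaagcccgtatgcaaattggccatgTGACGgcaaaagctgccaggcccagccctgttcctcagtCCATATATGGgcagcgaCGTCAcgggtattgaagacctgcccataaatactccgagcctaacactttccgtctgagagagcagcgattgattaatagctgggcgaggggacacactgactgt
Egr4, chr6:85513540-85513839, minus strand: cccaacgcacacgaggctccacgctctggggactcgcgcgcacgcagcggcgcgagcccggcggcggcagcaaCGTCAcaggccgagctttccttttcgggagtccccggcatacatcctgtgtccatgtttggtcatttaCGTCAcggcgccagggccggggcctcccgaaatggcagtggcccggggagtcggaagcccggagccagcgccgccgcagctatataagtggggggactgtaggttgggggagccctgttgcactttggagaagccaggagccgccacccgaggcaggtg
Nab1, chr1:52500399-52500698, minus strand: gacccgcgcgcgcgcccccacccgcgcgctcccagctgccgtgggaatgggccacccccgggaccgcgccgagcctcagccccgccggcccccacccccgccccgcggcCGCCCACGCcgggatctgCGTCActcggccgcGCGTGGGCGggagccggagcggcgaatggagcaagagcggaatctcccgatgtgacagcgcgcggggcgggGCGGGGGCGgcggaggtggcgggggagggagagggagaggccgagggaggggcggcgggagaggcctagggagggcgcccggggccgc
Of the 5 windows of Egr2, 4 held a CArG box, and 3 of these cover the same box from starts that overlap. In each of the 2 Egr2 windows shown the box begins at -72, counted from the start. The first also holds 3 ETS cores, of which 2 overlap, and the second has a TGACG on either side of the box. Egr4 had TGACG at -177 and -109 and no CArG box in this window. Nab1 had 3 Egr sites, at -141, -109 and -38, and the window of Nab2 (chr10:127666654-127666953, minus strand) had none of the marked motifs. A match is a description of the letters and no evidence of binding.

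Transcripts near the 6 genes were examined as well, over 39 probes of other names within 50 kb of a member probe in mm9, of which 26 were tested. Near Egr1, none of the 4 tested probes was called with serum or with cordycepin, Kdm3b and Etf1 included. The same held for the 3 tested near Egr2, the 1 near Egr4 (Fbxo41) and the 6 near Nab2, which read Tmem194 and Stat6. With serum 0.849% of all probes were called higher and 0.878% lower, and with cordycepin 7.63% and 2.87%. The lack of calls near these genes therefore says little. Downstream of Egr3 lay 3 probes on the same strand that the array names by position only, and all 3 rose with serum. These 3 share a name and so are readings of the same locus, and they were singled out after their values were seen.

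In the order of their position, these probes begin 4636, 4789 and 4868 bases downstream of the start of the Egr3 probe. The middle one (chr14:70484011-70484070, mm9) gave -4.26 and -4.76 without serum, 0.44, -0.21 and -0.015 with serum, and -1.53, -1.80 and -1.19 with cordycepin and serum. No groups overlapped, and the cordycepin arrays lay between the other 2 groups. It rose by 4.58 ± 0.26 with serum (SE, limma adjusted p 0.000168), fell by 1.58 ± 0.23 with cordycepin (SE, limma adjusted p 0.00180) and remained 3.00 ± 0.26 above no serum with cordycepin (SE, limma adjusted p 0.000195). On the first probe the same 3 changes were 3.95, -1.19 and 2.76, all called, and on the third they were 1.81, which was called, and -0.87 and 0.94, which were not. The call of the first probe with cordycepin was lost with normexp (-0.77) and with centring on spike-in probes (limma adjusted p 0.167), and that of the third probe with serum was lost with centring on spike-in probes (1.45, limma adjusted p 0.426). With cordycepin the third probe passed the minimum change without serum replicate 2 and with quantile normalisation (-1.01), and against no serum it did so without no serum replicate 1 (1.04).

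The Egr3 probe itself was at the level without serum in cordycepin-treated cells, at a difference of 0.012, so the response of the downstream probes was set against it within each array. Relative to no serum, the downstream probes exceeded Egr3 by 2.75 ± 0.37, 2.99 ± 0.36 and 0.93 ± 0.33 (SE) in cordycepin-treated cells. Relative to serum, they fell less than Egr3 by 1.41 ± 0.43, 1.02 ± 0.52 and 1.73 ± 0.44 (SE). With normexp these last differences were 0.36, -0.18 and 0.53, so the direction turned for the middle probe, which was also at 0.67 without cordycepin replicate 3, while those against no serum were 1.02, 1.45 and 0.40. The groups did not overlap in any of these 6 comparisons, and each gave an exact permutation p of 0.1, the smallest possible with 3 arrays against 3 or against 2. Whether these probes read a transcript of their own or RNA that continues from Egr3 was not tested.

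**Figure D3:**
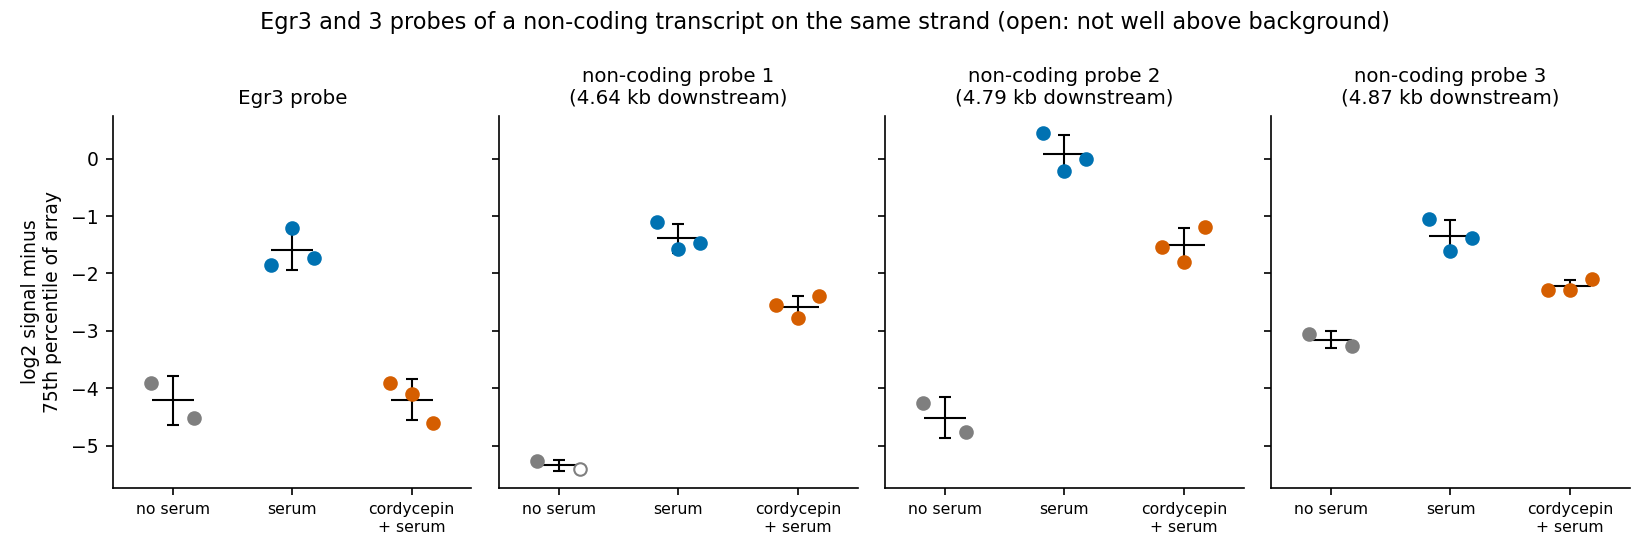
Level on each array of the Egr3 probe and of 3 probes downstream on the same strand, as log2 signal minus the 75th percentile of the array, with the group mean and SD. Cordycepin arrays overlap the arrays without serum for Egr3 and lie between both other groups for each downstream probe, at -1.53, -1.80 and -1.19 for the middle one.

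Near Nab1, 5 same-strand probes named by position only begin 2.40 to 2.80 kb downstream. They changed by 0.35 to 0.84 with cordycepin and by 0.46 to 0.81 with serum, and none was called in either comparison. With cordycepin, those at 0.84, 0.79 and 0.63 missed only the minimum change (limma adjusted p 0.0234, 0.00725 and 0.00661). The others did not pass the test. In cordycepin-treated cells these 5 probes were 0.81 to 1.45 above no serum, and 4 of them were called. Of all probes, 6.48% were called higher there. The 5 probes share a name, so these are repeat readings of the same locus on the same arrays and not separate calls. For the 3 probes at 0.87 to 1.01 kb the corresponding difference was 0.18 to 0.30 and was not called, and for Nab1 itself it was -0.08. In the same comparison 1 of the 4 tested probes near Egr1 was called, at 1.64 (limma adjusted p 0.0315). It lies 22.5 kb downstream on the opposite strand and is also named by position only. The probes of the same name at 22.7 and 22.9 kb were well above background on no array and were not tested.

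Known targets of Egr proteins formed a list of 25 genes, 22 of them tested. With serum, 5 rose and 0 fell, beside 0.849% and 0.878% of all tested probes. After cordycepin 4 fell and 2 rose, beside 2.87% and 7.63% of these, so the share that rose was near that of all probes. Gdf15, among those that rose, passed the filter on dim probes through the cordycepin arrays alone, so its call is not separate evidence. The median changes were 0.17 and -0.11, beside -0.017 and 0.10 over all probes. F3, Arc and Thbs1 were among those that rose with serum and among those that fell with cordycepin, although these 2 comparisons share the serum arrays.

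F3, which encodes tissue factor, lay between 5.39 and 5.47 without serum, 7.15 and 7.49 with serum and 4.93 and 5.12 with cordycepin and serum. It fell by 2.29 and was 0.41 below no serum, not called. Thbs1, the gene of thrombospondin-1, fell by 2.05. Arc, a synaptic immediate early gene, rose by 4.23 with serum, fell by 2.18 and, like Egr2, was called above no serum with cordycepin, by 2.04. The nuclear receptor gene Nr4a1, which rose by 2.57 with serum, changed by -0.92 with cordycepin, under the minimum change for a call (limma adjusted p 0.0302). Nr4a1 too was called above no serum with cordycepin, by 1.66 (limma adjusted p 0.00426). In that comparison 4 of the 22 tested targets were called higher, Gdf15 and Cdk5r1 included, and 0 lower. The limit of the filter holds for Gdf15 here too. Over all probes these shares were 6.48% and 2.99%. Ptges, a prostaglandin synthase gene, changed by 0.70 and was not called.

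The targets that rose with cordycepin were Gdf15, a stress-induced cytokine, and Cdk5r1, the activator of Cdk5. Gdf15 was well above background on the 3 cordycepin arrays and on no other, and was at least 20.8-fold higher than with serum. It was thus tested only because it is high on the cordycepin arrays. Cdk5r1 rose by 1.22. Growth factor genes of the list, Tgfb1, Pdgfa, Pdgfb, Fgf2, Igf2 and Vegfa, changed by -0.40 to 0.06 with cordycepin and were not called. The lowest was Vegfa, at -0.40 and a limma adjusted p of 0.0453, under the minimum change.

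Genes that carry the signal from ERK to SRF and its partners formed a list of 23, of which 22 were tested. Srf, itself an SRF target, was the 1 gene called with serum, at 1.42, and 0 were called with cordycepin. Of all probes, 0.849% were called higher and 0.878% lower with serum, and 7.63% and 2.87% with cordycepin. At such shares few calls are met in a list of this size, so these counts say little about it. Srf changed by -0.64 with cordycepin (limma adjusted p 0.00624) and lay at 4.01 to 4.15 without serum, 5.45 to 5.58 with serum and 4.75 to 5.04 with both. The kinase genes Mapk3, Map2k1 and Map2k2 changed by 0.07 to 0.20 with cordycepin. Other kinase genes of the list went the other way, Braf by -0.28, Rps6ka2 by -0.28 and Rps6ka3 by -0.26. Mkl1 changed by -0.36 (limma adjusted p 0.0352), under the minimum change. Median changes of the list were 0.04 with serum and 0.05 with cordycepin.

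Among the NuRD subunits, coactivators and factors that share the Egr site, 16 of 17 genes were tested and 0 were called in each comparison. Over all probes 0.849% were called higher and 0.878% lower with serum, and 7.63% and 2.87% with cordycepin. Against no serum these shares were 6.48% and 2.99%, so counts of 0 in a list of this size say little. Gatad2a, a NuRD subunit, came nearest, at 0.90 with cordycepin (limma adjusted p 0.00626). Gatad2b, also a NuRD subunit, went the other way, at -0.37 (limma adjusted p 0.0430), under the minimum change. Sp1 and Sp3 changed by -0.29 and -0.14. Of 6 myelin genes that Egr2 controls in Schwann cells, 5 were tested. Prx, the periaxin gene, fell by 1.48 with cordycepin, and Mbp, Pmp22, Gjb1 and Mag changed by -0.14 to 0.23 and were not called. Prx changed by 0.63 with serum (limma adjusted p 0.0366), under the minimum change for a call. With cordycepin it differed from no serum by -0.85 (limma adjusted p 0.00201), also under the minimum change.

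**Figure D4:**
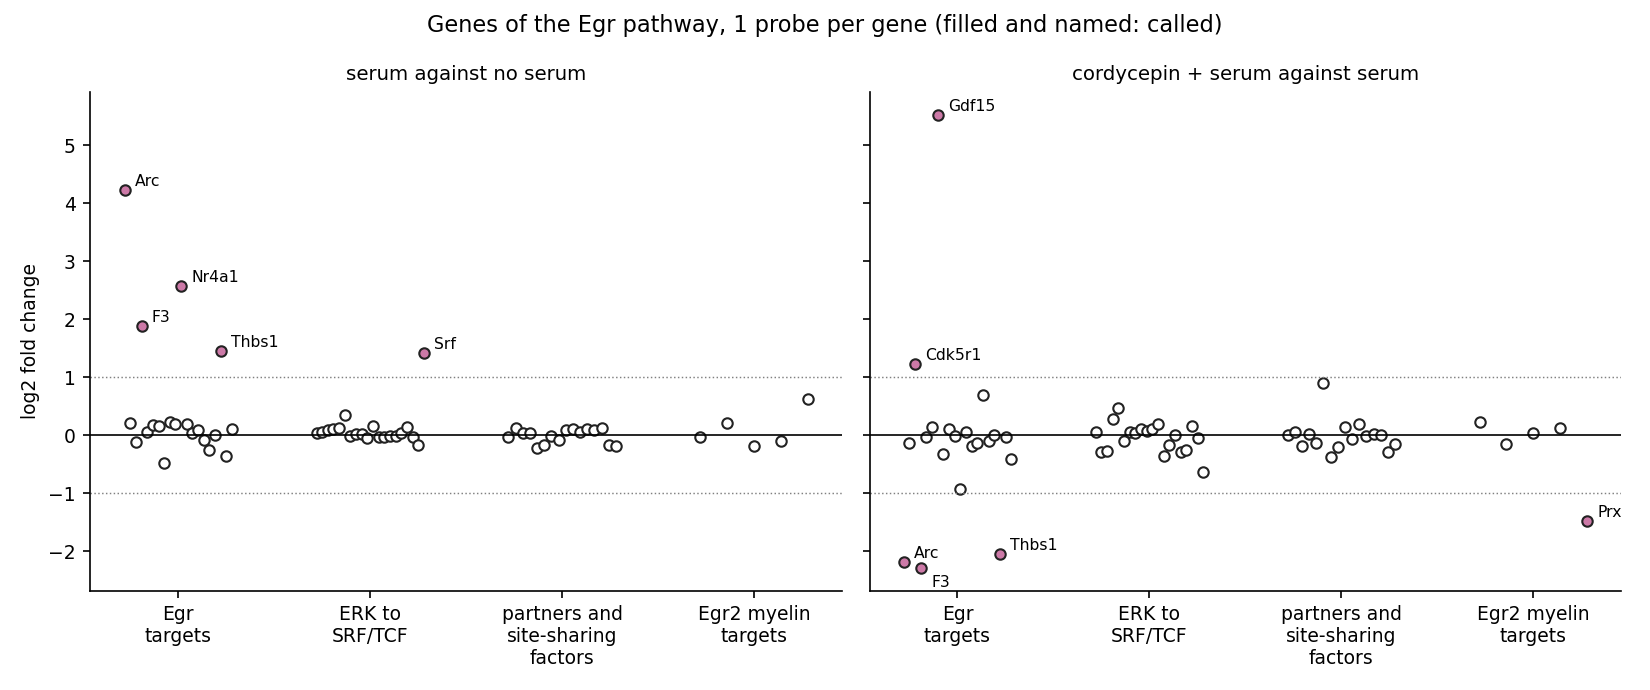
Log2 fold change of tested genes in 4 lists of the Egr pathway, with serum (left) and with cordycepin (right), 1 probe per gene, with certain members not shown. Filled, named points were called, and dotted lines mark a change of 1 in size. Arc, F3 and Thbs1 are called on both sides, higher with serum and lower with cordycepin, while Srf is the 1 called gene of the signalling list.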

How the data were processed

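The arrays, 8 in number, were 1-colour Agilent mouse arrays of total RNA, and the series describes the treatments as made in independent triplicate. Groups and replicate numbers came from the sample labels. The deposited files hold the intensity of each spot, not logged. Feature Extraction 10.7.3.1 made these values for the authors, with background subtracted, and probe positions refer to mm9. The 8 arrays shared 1 slide and 1 scan.

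The deposited processed intensity was put on a log2 scale, and the 75th percentile of each array over non-control spots was subtracted. Control spots and spots marked as outliers were left out. Probes entered the test if all arrays of some group read them well above background. A fit by limma 3.58.1 (R 4.3.3) over all 8 arrays, with no covariate, gave two-sided p-values with Benjamini-Hochberg adjustment over 30859 probes. Where no array of a group measured a probe, the fold is a bound, taken against the dimmest probes that passed the background test on those arrays. The calculation was tested on simulated data. Figures were drawn with matplotlib.

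The 6 genes and the gene lists were chosen with earlier results of these data known. All probes of the 6 genes are given. Of each list, up to 4 called genes with the largest change with cordycepin and up to 3 with serum were named, plus the 3 largest changes not called among Egr targets, and others were named after their values were seen. Certain list members, some of which this rule would name, count in the totals but are not reported here. A gene with more than 1 probe is represented in the lists by its brightest. Alternatives were the background correction, the scaling, the filter, the threshold, the variance prior, the arrays fitted, blocks for slide row and replicate number, and leaving out each array. The number of arrays limits the precision.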

Additional observations from a re-analysis of the deposited data

How the results depend on the processing

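The 4 genes called lower with cordycepin were 4 under leaving out each array, and the number called with serum was 3 to 4. Centring on spike-in probes shifted the median change of all probes by -0.36 with serum and by -0.39 for cordycepin plus serum against no serum, and left 0 genes and 0 probes of the 6 called in that last comparison. Deviations of same-numbered arrays from their group means correlated at -0.17 to 0.23. In groups this small such deviations depend on each other, so they cannot decide whether the replicate numbers pair the samples. With the replicate number as a block, Egr1 fell by 1.38 (limma adjusted p 0.000719) and no Egr or Nab call changed. Some changes near 0 turned sign. Egr1 against no serum was -0.035 with quantile normalisation, -0.26 with spike-in centring and -0.0072 to 0.26 leaving out each array. Egr3 there was -0.20, -0.38, -0.029 with slide row as a block, and -0.29 to 0.31. Nab1 with serum was -0.0090, -0.36, -0.024 with the replicate block, and -0.061 to 0.13. With normexp, Egr1 minus Egr3 (-0.26), Egr1 minus Egr4 (-0.88), Egr2 minus Egr4 (-0.21) and Egr3 minus Egr4 (-0.62) turned sign, as did the middle probe downstream of Egr3 minus Egr3 (-0.18, cordycepin against serum), and the offset of 50 exceeds the processed signal of Egr4 on 6 of 8 arrays. Of all probes, 3242 were called with cordycepin against serum, but 1321 with normexp, 2098 with spike-in centring, 1809 among probes above background on all arrays and 5975 with no minimum change. With serum, 533 were called, but 230 with normexp, 245 with spike-in centring, 221 with no filter, 1003 at an unadjusted p, 346 from both groups alone and 265 (without no serum replicate 2) to 689 leaving out each array. Against no serum, these were 1401, 1538, 1686 and 4663 under the settings named first. In the 4 pathway lists, calls became 3 with serum and 1 against no serum with spike-in centring, and 15 and 9 for both cordycepin comparisons with no minimum change. The cause of these shifts was not tested. Dim probes such as Egr4 are limited by background, and 2 arrays without serum limit every comparison with them. The alternatives for the probes downstream of Egr3 were chosen after seeing the data.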
